A study of Mus musculus with 16 samples.

Results

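10 genes of innate RNA sensing and inflammatory signalling were followed in mouse oocytes with and without an oocyte-specific deletion of Psma7, which encodes a proteasome subunit. The study reports that some PSMA7 protein remains in the deleted oocytes. Isg20 and Ccl2 were chosen by their FPKM, higher in Psma7 cKO than in WT GV oocytes, and Il1r2, Ifih1, Ddx58, Mavs, Isg15, Irf3, Irf7 and Nfkbia were added to look for a wider interferon or inflammatory response. 9 of the 10 have a row, 1 each, among the 28618 entries for 27987 gene names of the expression table. The expression of Isg15 is not analysed here, and only its promoter letters are described. The other 9 are all accounted for below, and for Isg20 and Ccl2 the difference between GV genotypes is a description of how they were chosen, without a test.

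RNA was sequenced from oocytes of 2 genotypes at 2 stages, with 4 biological replicate libraries in each of the 4 groups. WT and Psma7 cKO (Zp3-Cre; Psma7 flox/flox) females were 3 to 4 weeks old, and the floxed line was made in C57BL/6 mice. GV oocytes, arrested in the first meiotic prophase, were taken 44 h after 5 IU PMSG from both genotypes. MII eggs came from oviducts of females of both genotypes that received 5 IU PMSG and, 44 h later, hCG, 14 to 16 h before collection, and were freed of cumulus cells with 0.3% hyaluronidase. The Zp3 promoter drives CRE in growing oocytes, so the surrounding follicle cells keep Psma7. The WT label names no Cre, so presence of CRE and loss of Psma7 cannot be told apart. Each library holds 5 pooled oocytes according to the labels, but the study's methods give another pool size for its RNA samples, so the pool size is uncertain. The labels do not say whether pools came from separate females, so p-values measure the spread between these libraries, which may be partly technical.

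In mammalian cells, double-stranded or 5′-triphosphate RNA in the cytoplasm is bound by the helicases RIG-I (Ddx58) and MDA5 (Ifih1), which signal through the mitochondrial adaptor MAVS. The kinases activated there switch on IRF3, IRF7 and NF-kB, which transcribe type I interferon and chemokine genes, and interferon in turn induces Isg15, Isg20, Irf7 and many others. NF-kB is held in the cytoplasm by the inhibitor IkBα (Nfkbia), which the proteasome degrades when the pathway is switched on, and Nfkbia is itself an NF-kB target. Ccl2 encodes a chemokine that draws monocytes, and Il1r2 encodes a decoy receptor that binds interleukin 1 without signalling.

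Promoter sequences are shown for Isg20, the interferon-induced gene of the pair, and for Nfkbia, the NF-kB target, because letters that interferon and NF-kB factors are known to bind were searched for in them. The sequences are from RefSeq (GRCm38.p6), in which 9 of the 10 genes (all but Ccl2) have windows, 11 in all, and each is the 250 bases before the transcript start, 5′ to 3′ on the strand of the gene. Isg20 lies on chromosome 7, plus strand, from 78913424 to 78920396, and its window is chr7:78913174-78913423. Nfkbia lies on chromosome 12, minus strand, from 55489410 to 55492647, and its window is chr12:55492648-55492897. Capitals mark matches, on either strand, to kB letters, strictly GGGA, any 2 bases and TTCC, or more loosely GGGA, any 4 bases and CC.
Isg20: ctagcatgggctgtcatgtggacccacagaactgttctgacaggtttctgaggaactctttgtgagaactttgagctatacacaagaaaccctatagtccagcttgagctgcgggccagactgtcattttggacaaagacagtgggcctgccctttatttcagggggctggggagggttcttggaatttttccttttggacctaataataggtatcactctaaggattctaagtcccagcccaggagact
Nfkbia: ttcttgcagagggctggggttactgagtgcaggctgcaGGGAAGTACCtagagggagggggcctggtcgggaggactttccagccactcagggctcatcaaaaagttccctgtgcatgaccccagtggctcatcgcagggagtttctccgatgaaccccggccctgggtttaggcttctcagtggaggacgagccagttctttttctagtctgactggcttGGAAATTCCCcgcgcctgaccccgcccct

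The Isg20 window above holds no match to these letters. A second Isg20 window in the table, for a start inside the gene, holds GGGACCTTCC at chr7:78913656-78913665, 109 bases before that start. In Nfkbia the strict letters match on the other strand 29 bases before the start (GGAAATTCCC, chr12:55492667-55492676), which is the second capital run, and the first capital run, 212 bases before the start, matches the looser letters alone. Strict letters occur in 397 of 32851 promoter windows (1.21%) and the looser ones, which include them, in 17.6%. The interferon response letters, GAAA, any 2 bases and GAAA on either strand, occur in 2.98% of windows and, among the 11 windows of these genes, in that of Isg15 alone, where 3 overlapping matches lie 78, 72 and 66 bases before the start. A match is a description of the letters and no evidence of binding in oocytes.

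The values are FPKM, fragments divided by transcript length and by library size, which the authors computed with Cufflinks 2.2.1. FPKM is a share of a library, so fewer transcripts per cell and more RNA from other genes cannot be told apart, and with oligo-dT priming a change in poly(A) tail length cannot be told apart from a change in RNA. Depth was estimated from the steps between low values at 10.5 to 15.6 M fragments per library, with a median of 13.55 M. Psma7 itself was 165 ± 25.3 FPKM in WT and 14.6 ± 2.82 FPKM in cKO GV oocytes, and 126 ± 32.1 and 39.7 ± 20.2 FPKM in the eggs (mean ± SD, n = 4 each). Neither pair of groups overlapped, in the direction of the labels (exact permutation p = 0.0286 at each stage). All permutation tests here are two-sided over 4 libraries against 4, for which this p is the smallest possible.

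The label of oocyte was checked against 10 oocyte markers, and all 10 had means over 1 FPKM in each group. Zp3, a protein of the zona pellucida, had 3977 ± 73.5 FPKM in WT and 4146 ± 197 FPKM in cKO GV oocytes. Cumulus and granulosa markers (14 of 15 with a row) summed to 14.2 ± 0.918 FPKM in WT and 16.3 ± 1.09 FPKM in cKO GV oocytes, and to 16.6 ± 0.917 and 17.2 ± 0.670 FPKM in WT and cKO eggs. Cyp19a1 (aromatase) made up most of it, with 8.10 ± 1.43 and 9.59 ± 0.472 FPKM in the GV groups. In WT and cKO eggs, freed of cumulus cells, Cyp19a1 had 13.5 ± 0.658 and 13.7 ± 1.32 FPKM. Nr5a2 (2.72 to 3.94 FPKM) and Cyp11a1 (0.973 to 2.63 FPKM) were also present in all 8 GV libraries, while Tnfaip6 was listed at 0 in them. Whether this sum follows the amount of cumulus or granulosa RNA was not tested.

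Leukocyte markers (15 of 16 with a row) summed to 57.8 ± 1.68 FPKM in WT and 61.5 ± 5.25 FPKM in cKO GV oocytes, nearly all from C1qb, a complement gene, at 55.8 ± 2.08 and 59.4 ± 5.23 FPKM. Cd68, of the same list, was present in every library, with 1.14 to 2.46 FPKM in GV oocytes and 1.19 to 3.83 FPKM in eggs. Ptprc, which encodes the pan-leukocyte antigen CD45, reached at most 0.0494 FPKM in any of the 16 libraries, and Cd14 was at 0 in all 8 GV libraries. In theca and stroma markers (8 of 10 with a row) the sum was 2.25 ± 0.892 FPKM in WT and 3.22 ± 1.02 FPKM in cKO GV oocytes, mostly Dcn, the matrix proteoglycan decorin. Endothelial markers (4 of 7 with a row) summed to 16.8 ± 2.66 and 16.6 ± 3.01 FPKM in the GV groups, mostly Pecam1, and oviduct markers (4 of 6 with a row) to 1.20 ± 0.357 and 1.28 ± 0.633 FPKM. In WT and cKO eggs, in that order, leukocyte markers summed to 11.4 ± 5.47 and 10.9 ± 2.58, stromal to 8.08 ± 1.33 and 5.60 ± 1.99, endothelial to 13.1 ± 0.708 and 11.0 ± 1.39, and oviduct markers to 0.796 ± 0.169 and 0.578 ± 0.244 FPKM.

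1 library stood apart before any of these results. WT egg replicate 1 held 8.88 FPKM of Lyz2, the macrophage lysozyme, against 0 to 0.967 FPKM in the other 15 libraries. The chemokine Ccl7 was at 5.65 FPKM and the platelet factor Pf4 at 2.89 FPKM in it, and both were listed at 0 in the other 15. Ccl6 (6.59 FPKM), Ccl3 (5.02 FPKM) and Ccl9 (2.74 FPKM) were also above all others, whose highest values were 2.05, 2.98 and 0.294 FPKM. These genes were chosen after their values were seen, except that Lyz2 is 1 of the leukocyte markers. The summed leukocyte markers were 19.3 FPKM in this library and 6.65 to 10.0 FPKM in the other 3 WT eggs. Of the 15 leukocyte markers with a row, 6 were higher in this library than in any other and 6 were at 0 in it. Among the first were Ly6c2 (1.39 FPKM) and Cd14 (0.390 FPKM), both at 0 in the other 15 libraries, and Fcer1g (0.983 FPKM), and C1qa, Csf1r and Ptprc were among those at 0. The egg difference in Ccl2 is given with and without this library.

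**Figure D1:**
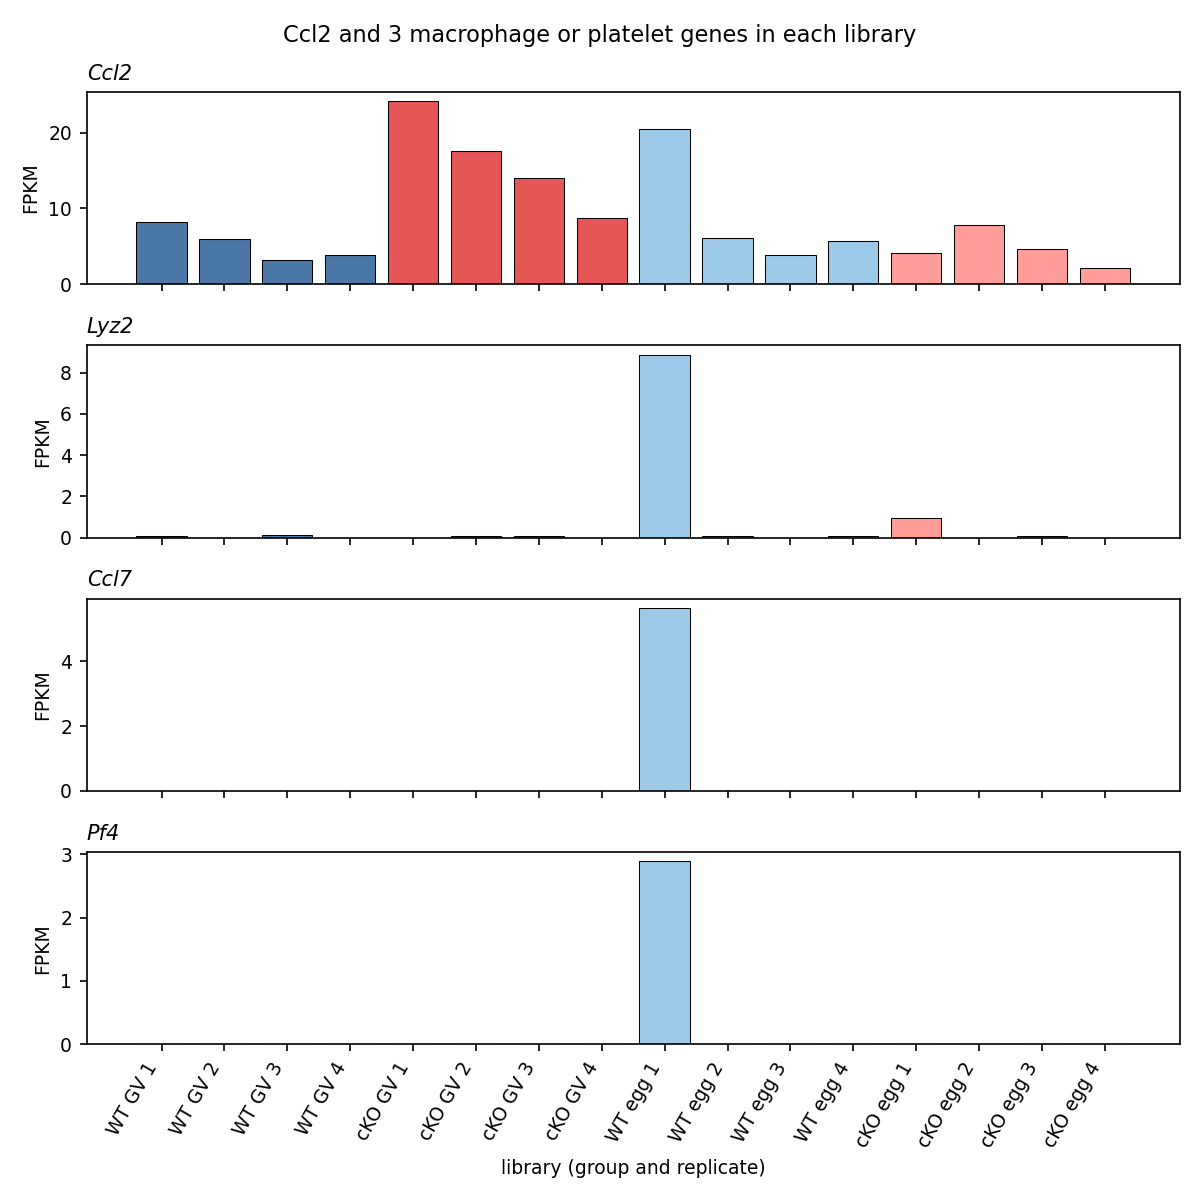
FPKM (vertical axes, linear from 0) of Ccl2, Lyz2, Ccl7 and Pf4 in each of the 16 libraries, 1 bar per library, coloured by group. WT egg replicate 1 has 20.5 FPKM of Ccl2 and is the 1 library with Ccl7 and Pf4. The cKO GV libraries have 8.72 to 24.2 FPKM of Ccl2, with Ccl7 and Pf4 listed at 0. Ccl7 and Pf4 were chosen after their values were seen, and the source of the Ccl2 in either was not tested.

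Isg20 encodes a 3′ to 5′ exonuclease that degrades single-stranded RNA. In WT GV oocytes it had 0.255, 0.120, 0.648 and 0.695 FPKM in replicates 1 to 4. In Psma7 cKO GV oocytes it had 3.71, 3.55, 2.78 and 3.61 FPKM. Every cKO library lay above every WT library, which is how the gene was chosen, and the ratio of the group means was 7.94. The WT values rest on an estimated 1.8 to 9.7 fragments per library and the cKO values on 41.2 to 56.3, so the WT level is known only roughly.

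In eggs the Isg20 groups overlapped. WT eggs had 1.85, 2.67 and 3.28 FPKM in replicates 1 to 3, and replicate 4 was listed at 0. Psma7 cKO eggs had 4.68, 2.67, 2.41 and 0.892 FPKM. The cKO mean was 0.711 FPKM above the WT mean, which is within the spread of either group (exact permutation p = 0.514). In limma the log2 fold change was 0.22 (95% interval -0.89 to 1.34, Benjamini-Hochberg adjusted p = 0.800), an interval that reaches from a fall to an increase of over 2-fold, so a difference was not detectable at this spread. With a floor of 0.1 FPKM the log2 fold change was 1.01 (limma, Benjamini-Hochberg adjusted p = 0.556). The difference in means was 0.0606 FPKM without WT egg replicate 4 and 0.0383 FPKM without cKO egg replicate 1. The limma log2 fold change turned to -0.113 and -0.111 without them, in the same order. Within WT, 3 of the 4 egg libraries lay above all 4 GV libraries and 1 lay below them, and within cKO the egg values lay on both sides of the GV values. By mean, Isg20 was lowest in WT GV oocytes and highest in cKO GV oocytes, and the egg groups between them did not separate.

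Ccl2 lies on chromosome 11, plus strand, from 82035571 to 82037453 (GENCODE M21, GRCm38), where the antisense gene Gm17268 overlaps it. WT GV oocytes had 8.25, 5.93, 3.24 and 3.86 FPKM, on an estimated 47.4 to 138.4 fragments. Psma7 cKO GV oocytes had 24.2, 17.6, 14.0 and 8.72 FPKM, on 100.4 to 336.3 fragments. The groups did not overlap, again by the way the gene was chosen, but the lowest cKO library was only just above the highest WT library. The ratio of the means was 3.03.

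Among eggs the order of the Ccl2 means was the other way. WT eggs had 20.5, 6.03, 3.90 and 5.65 FPKM, and Psma7 cKO eggs had 4.14, 7.77, 4.61 and 2.17 FPKM. The difference in means, cKO minus WT, was -4.34 FPKM, with overlapping groups (exact permutation p = 0.429). Without WT egg replicate 1 it was -0.517 FPKM, so nearly all of the difference came from that library, in which Lyz2, Ccl7 and Pf4 were also high; their part in its Ccl2 was not tested. limma gave a log2 fold change of -0.77 (95% interval -1.96 to 0.42, Benjamini-Hochberg adjusted p = 0.360), and -0.27 without WT egg replicate 1 (adjusted p = 0.716). All 4 cKO eggs lay below all 4 cKO GV oocytes, with means of 4.67 ± 2.32 and 16.1 ± 6.48 FPKM, a comparison that uses the GV values on which the gene was chosen and has no test.

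Of the genes that were high in WT egg replicate 1, Ccl7, Pf4 and Ccl9 were at 0 in all 8 GV libraries, whereas Ccl6 had 0.980 to 2.05 FPKM and Ccl3 0.691 to 1.56 FPKM in them. Lyz2 was at most 0.137 FPKM there. The granulosa sum was 13.4 to 15.1 FPKM in WT and 15.0 to 17.3 FPKM in cKO GV oocytes, and the part of that shift in the Ccl2 values was not tested.

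**Figure D2:**
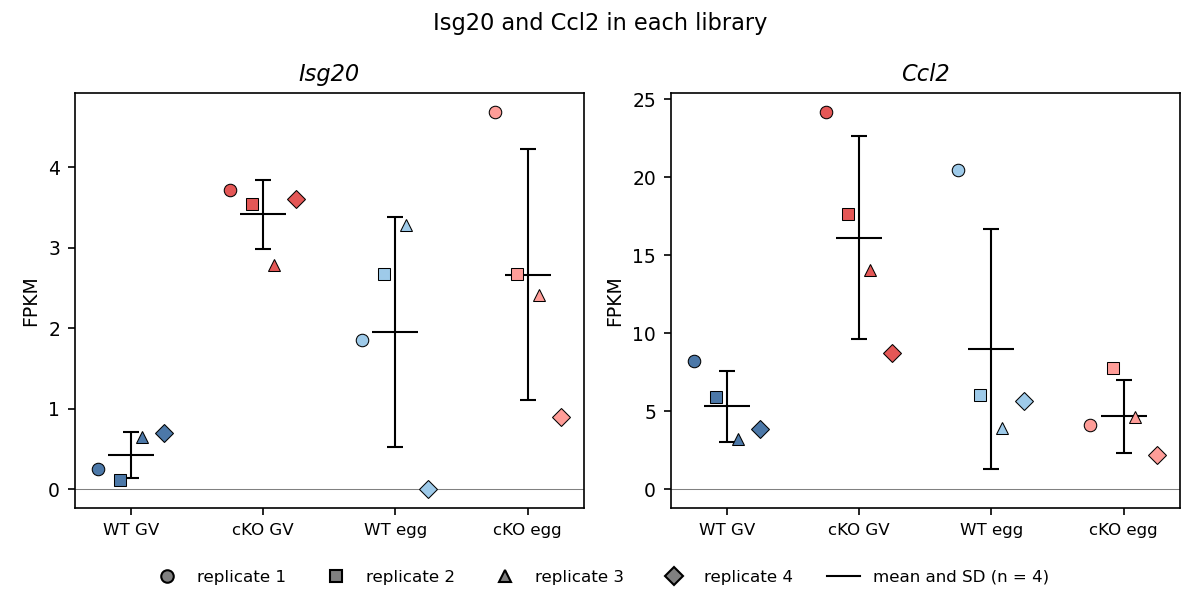
FPKM (vertical axes, linear) of Isg20 and Ccl2 in each library by group, 1 point per library with a marker per replicate number, and bars for the mean and SD (n = 4). In GV oocytes every cKO point lies above every WT point for both genes, the comparison on which they were chosen, and in eggs the genotypes overlap for both.

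The transcripts whose log2 FPKM followed Isg20 most closely over the 16 libraries, of 10614 compared, were Vmn2r51 (Pearson's r = 0.857), Gab2 (0.807), Gm9625 (0.789), Taok3 (0.783) and Arhgef11 (0.764). Vmn2r51, a vomeronasal receptor gene, had 8.48 ± 1.27 FPKM in WT and 12.4 ± 1.34 FPKM in cKO GV oocytes, and 12.3 ± 1.86 and 11.9 ± 4.32 FPKM in WT and cKO eggs. Closest to Ccl2 were Maml1 (r = 0.820), Gm10378 (0.801), Nap1l3 (0.774), 6330549D23Rik (0.761) and Slc24a4 (0.755), each with its highest mean in cKO GV oocytes. These are descriptions over libraries that share 4 groups and include the GV values on which both genes were chosen, picked as the highest of many.

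The 2 cytoplasmic RNA sensors differed widely in level. Ifih1 was listed at 0 in all 8 GV libraries and, in eggs, at 0 in all but WT replicate 1 (0.0143 FPKM) and cKO replicate 1 (0.0121 FPKM), each an estimated 1.0 fragment. Ddx58, in contrast, rested on an estimated 119.3 to 785.5 fragments per library, an upper estimate that assumes its longest transcript. It had 12.6, 14.5, 12.3 and 10.5 FPKM in WT GV oocytes and 13.1, 12.9, 11.3 and 11.8 FPKM in cKO GV oocytes. The groups overlapped and the log2 fold change was -0.02 (limma, 95% interval -0.29 to 0.25, Benjamini-Hochberg adjusted p = 0.969).

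WT eggs had 2.73, 3.78, 3.02 and 3.88 FPKM of Ddx58 and cKO eggs 3.29, 2.42, 7.86 and 4.29 FPKM. 2 cKO eggs lay above and 1 below all WT eggs, with replicate 3 the highest, and the log2 fold change was 0.29 (limma, 95% interval -0.44 to 1.02, Benjamini-Hochberg adjusted p = 0.587). The adaptor gene Mavs was at similar values in both genotypes. It had 12.9, 11.7, 8.37 and 10.5 FPKM in WT and 9.56, 11.9, 11.2 and 12.4 FPKM in cKO GV oocytes, a log2 fold change of 0.07 (limma, 95% interval -0.26 to 0.40, Benjamini-Hochberg adjusted p = 0.913). In eggs it had 2.69, 2.92, 2.50 and 2.42 FPKM in WT and 3.57, 2.82, 1.93 and 2.69 FPKM in cKO (log2 fold change 0.04, 95% interval -0.39 to 0.46, limma adjusted p = 0.918). For neither gene do these intervals hold a 2-fold difference in GV oocytes, whereas for Ddx58 the egg interval just does.

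Irf3, the transcription factor downstream of MAVS, was at 8.99, 6.37, 5.56 and 7.40 FPKM in WT GV oocytes and at 10.3, 9.15, 11.2 and 8.64 FPKM in cKO GV oocytes. 3 of the 4 cKO libraries lay above all WT libraries and the ratio of the means was 1.39 (exact permutation p = 0.0571). It did not pass across all transcripts (limma log2 fold change 0.49, standard error 0.16, Benjamini-Hochberg adjusted p = 0.289). WT eggs had 0.627, 0.707, 0.632 and 0.588 FPKM and cKO eggs 0.910, 0.607, 2.47 and 1.15 FPKM, which overlapped (exact permutation p = 0.114), and the egg mean was under the 1 FPKM needed for the limma fit.

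Irf3 lies on chromosome 7 from 44997648 to 45002848, where Bcl2l12 overlaps it on the opposite strand, and whether fragments were counted by strand is not given in the sources used here. Bcl2l12 had 0.815 ± 0.160 FPKM in WT and 0.989 ± 0.0878 FPKM in cKO GV oocytes, and 0.186 ± 0.114 and 0.525 ± 0.0861 FPKM in WT and cKO eggs. Reads of the pair may therefore be shared. Irf7, which interferon induces, was listed at 0 in 13 of the 16 libraries, and reached 0.0337 FPKM in WT GV replicate 1, 0.0404 FPKM in cKO GV replicate 1 and 0.0704 FPKM in cKO egg replicate 1. These are at most an estimated 3.3 fragments, so neither Irf7 nor Ifih1 can be compared between genotypes at this depth.

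By mean, Nfkbia was the most abundant of the 9 genes in each of the 4 groups. In cKO GV replicate 1, however, Ccl2 was above it (24.2 against 20.8 FPKM). In WT GV oocytes Nfkbia had 29.5, 25.6, 29.0 and 25.7 FPKM, and in cKO GV oocytes 20.8, 18.6, 21.0 and 15.4 FPKM. All 4 cKO libraries lay below all WT libraries, and the mean was 0.690 of WT (exact permutation p = 0.0286). Among all transcripts tested in GV oocytes, 2.42% were lower without overlap. The limma log2 fold change of -0.54 (standard error 0.12, 95% interval -0.81 to -0.28) did not pass across all transcripts (Benjamini-Hochberg adjusted p = 0.109), and fitting all 16 libraries together brought the adjusted p to 0.0198. That joint fit also raised the calls over all 11062 transcripts, from 11 higher and 2 lower to 124 higher and 33 lower.

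In eggs Nfkbia was higher than in GV oocytes and no longer separated by genotype. WT eggs had 43.1, 51.9, 49.5 and 47.0 FPKM and cKO eggs 49.0, 45.8, 39.2 and 47.2 FPKM. The log2 fold change between them was -0.08 (limma, 95% interval -0.29 to 0.12, Benjamini-Hochberg adjusted p = 0.582). Whether the genotype difference changed with stage was tested as an interaction, which gave 0.46 (limma, standard error 0.15, adjusted p = 0.125).

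By mean, Il1r2 was lower in cKO than in WT GV oocytes and higher in cKO than in WT eggs. In GV oocytes it had 5.30, 6.22, 5.86 and 6.47 FPKM in WT and 4.52, 5.03, 4.51 and 3.75 FPKM in cKO. The cKO libraries all lay below the WT libraries (exact permutation p = 0.0286), but the log2 fold change of -0.42 did not pass across all transcripts (limma, 95% interval -0.72 to -0.13, Benjamini-Hochberg adjusted p = 0.275). In eggs it had 0.860, 0.883, 0.796 and 1.13 FPKM in WT and 1.79, 1.71, 2.37 and 1.50 FPKM in cKO. Here the cKO libraries all lay above the WT libraries, by 2.01-fold in the mean (exact permutation p = 0.0286). Of all transcripts tested in eggs, 13.6% were higher and 7.06% lower without overlap.

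The egg difference in Il1r2 passed across all transcripts (limma log2 fold change 0.82, standard error 0.16, 95% interval 0.45 to 1.18, Benjamini-Hochberg adjusted p = 0.0307). The WT egg mean of 0.918 FPKM was under the filter of 1 FPKM, so Il1r2 entered this fit only through its cKO values (mean 1.84 FPKM). With no filter the limma adjusted p was 0.0365. 3 of the 4 WT values were below the floor of 1 FPKM used for fold changes, which narrows their spread. The WT values rest on an estimated 15.0 to 21.2 fragments. Gm16894 on the opposite strand and Gm37347 on the same strand overlap Il1r2, so its reads may be shared with them. The call was lost without any 1 of the WT egg libraries (adjusted p = 0.0640 to 0.0914) and without cKO egg replicate 1 (adjusted p = 0.0578). It was also lost with the replicate number as a block (limma adjusted p = 0.0702). The log2 fold change stayed at 0.69 to 0.91 without 1 library and at 0.82 under the block. The genotype by stage interaction was 1.24 (limma, standard error 0.20, 95% interval 0.82 to 1.66, Benjamini-Hochberg adjusted p = 0.0112) and passed without any single library (adjusted p = 0.00364 to 0.0279). Of all 10615 transcripts in that fit, 1.07% were called with an interaction above 0 and 0.188% below it.

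**Figure D3:**
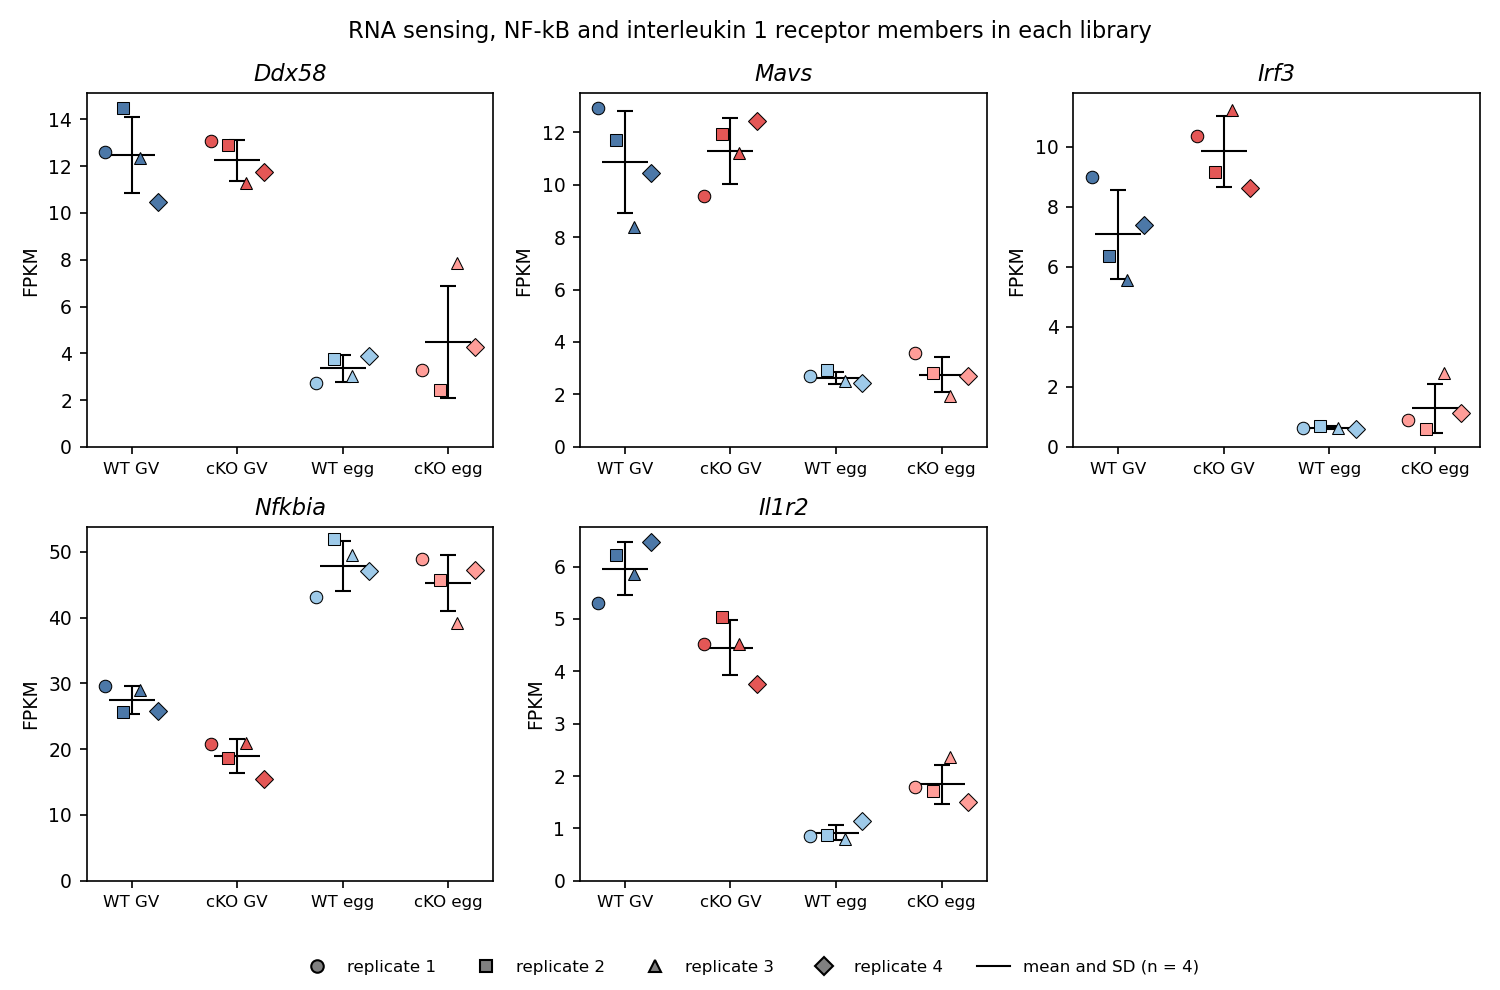
FPKM (vertical axes, linear from 0) of Ddx58, Mavs, Irf3, Nfkbia and Il1r2 in each library by group, 1 point per library, with bars for the mean and SD (n = 4). Nfkbia and Il1r2 are lower in all 4 cKO than in all 4 WT GV libraries, and Il1r2 is higher in all 4 cKO than in all 4 WT egg libraries.

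Counted together, 0 of the 5 genes tested in GV oocytes (Il1r2, Ddx58, Mavs, Irf3 and Nfkbia) passed limma at an adjusted p of 0.05, with 3 at an unadjusted p under 0.05, where 7.62% of all transcripts were higher and 3.06% lower. Of all 11062 transcripts tested there, 0.0994% were called higher and 0.0181% lower. 2 of these 5 were lower without overlap and 0 were higher without overlap, where 2.42% and 4.25% of all transcripts were. In eggs 1 of 6 (Il1r2, among Isg20, Ccl2, Il1r2, Ddx58, Mavs and Nfkbia) passed, where 6.53% of 9492 transcripts were called higher and 1.49% lower. Il1r2 met the filter of the egg fit only through its cKO values. The members' counts were not tested against these shares.

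From GV oocyte to egg, Ddx58, Mavs, Irf3 and the decoy receptor Il1r2 fell in both genotypes and Nfkbia rose, while Ifih1 was not tested. In WT the log2 fold change was -1.90 for Ddx58, -2.03 for Mavs, -2.80 for Irf3, -2.53 for Il1r2 and 0.80 for Nfkbia, with limma standard errors of 0.09 to 0.16. In cKO it was -1.59, -2.06, -2.92, -1.29 and 1.26 in the same order. The WT values of Irf3 and Il1r2 depend on the floor of 1 FPKM, since all 4 WT egg values of Irf3 and 3 of the 4 of Il1r2 lay under it. With a floor of 0.1 FPKM the Irf3 log2 fold change was -3.45 in WT and -3.13 in cKO, so the order of the genotypes turned, and the Irf3 means fell 11.1-fold in WT and 7.67-fold in cKO. All 5 passed in each genotype (limma, highest Benjamini-Hochberg adjusted p = 0.00121). Of all transcripts tested, 52.4% fell and 26.1% rose in WT, and 51.0% fell and 23.0% rose in cKO, with a median log2 fold change of -0.44 in WT and -0.42 in cKO. The falls of these 4 genes were larger than the median, but the median transcript also fell. Rescaling each library by the median ratio of expressed transcripts moved these medians to -0.21 and -0.22 and left all 5 called in the same direction. On that scale 4789 of 10457 transcripts were called lower and 3481 higher in WT. In cKO 4735 of 10630 were called lower and 3127 higher.

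The order of the members by mean was compared within each group. In WT GV oocytes the means ran from Nfkbia (27.5 ± 2.10 FPKM) through Ddx58 (12.5 ± 1.64), Mavs (10.9 ± 1.94), Irf3 (7.08 ± 1.48), Il1r2 (5.96 ± 0.505) and Ccl2 (5.32 ± 2.27) to Isg20 (0.430 ± 0.286). Ddx58 and Mavs, and likewise Irf3, Il1r2 and Ccl2, lay within their spread of each other. In cKO GV oocytes Ccl2 (16.1 ± 6.48) stood second by mean, with a spread that covered Nfkbia (18.9 ± 2.59), Ddx58, Mavs and Irf3. In WT eggs Nfkbia (47.9 ± 3.77 FPKM) was far above the others, Ccl2 (9.01 ± 7.70, with 20.5 in replicate 1 and 3.90 to 6.03 in the others) stood second, Ddx58 (3.35 ± 0.564) and Mavs (2.63 ± 0.220) came next, and Irf3 (0.639 ± 0.0498) was the lowest above 0.1 FPKM. In cKO eggs the order by mean was Nfkbia, Ccl2 (4.67 ± 2.32), Ddx58 (4.47 ± 2.39), Mavs (2.75 ± 0.669), Isg20 (2.66 ± 1.56), Il1r2 and Irf3. Ccl2, Ddx58, Mavs and Isg20 lay within their spread of each other there, so their order is not resolved.

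**Figure D4:**
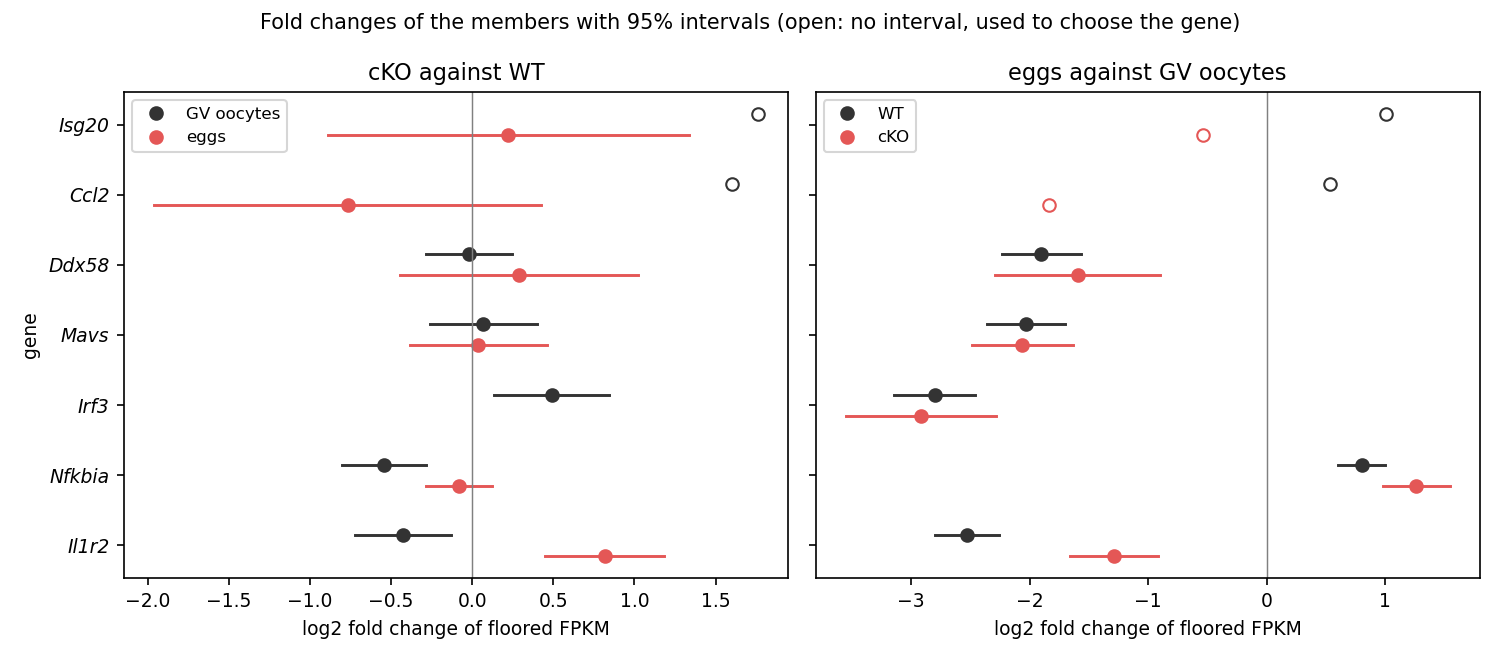
log2 fold change of FPKM floored at 1 (horizontal axes) for 7 genes (vertical axis), cKO against WT at each stage on the left and eggs against GV oocytes in each genotype on the right. Points are limma estimates with 95% intervals, and open points have no interval because they use the GV values that chose Isg20 and Ccl2. Intervals on the right lie clear of 0 for all 5 genes shown with one, whereas on the left most in eggs cover it.

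The wider pathway was described with 7 lists of RNA and DNA sensors, signalling kinases and factors, interferons and their receptors, interferon-stimulated genes, NF-kB genes, chemokines and cytokines, and exonucleases related to Isg20. Without the 10 genes they hold 200 names, of which 170 have a row, in 172 entries. 94 of the 172 entries were under 1 FPKM in every library. Of the 66 tested in GV oocytes, 0 passed limma, with 4 higher and 2 lower at an unadjusted p under 0.05 and a median log2 fold change of 0.06, against 0.04 for all transcripts. At that unadjusted p, 7.62% of all transcripts were higher and 3.06% lower. 2 of the 66 were higher and 0 lower in cKO without overlap, where 4.25% and 2.42% of all transcripts were. No list had a call in GV oocytes at this threshold.

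Interferon-stimulated genes were mostly under 1 FPKM. 50 of the 56 on the list had a row, and 35 of 51 entries other than the 10 genes stayed under 1 FPKM in every library. Of the 11 tested in GV oocytes 0 were called and the median log2 fold change was 0.05. Parp12, the most abundant, had 162 ± 6.15 FPKM in WT and 172 ± 8.27 FPKM in cKO GV oocytes. The classical responders Ifit1 (0.183 and 0.258 FPKM in WT and cKO GV oocytes), Mx1 (0.702 and 0.75 FPKM) and Rsad2 (listed at 0 in all 8 libraries) were low in both genotypes. Others of the list were well above 1 FPKM in both, such as Ifitm3 (64.1 and 58.7 FPKM), Epsti1 (53.8 and 56.0 FPKM) and B2m (46.4 and 47.3 FPKM). All of these were chosen here after their values were seen. Of the interferon list, 2 of 9 entries were tested, the receptor genes Il10rb (25.7 ± 3.65 and 20.3 ± 1.22 FPKM) and Ifnar1, and 7 of the 9 were under 1 FPKM in every library.

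Sensor genes other than Ddx58 and Ifih1 were led by Samhd1, a nucleotide hydrolase that restricts viruses (14.7 FPKM in WT and 13.2 FPKM in cKO GV oocytes). Signalling factors were led by Irf1 (89.1 and 87.2 FPKM), NF-kB genes by the kinase Ikbkb (17.5 and 21.2 FPKM), and the cytokine list by the interleukin 1 receptor Il1r1 (13.3 and 13.4 FPKM). Among the exonucleases and other ribonucleases, Rnaset2b led with 102 and 107 FPKM. None of these passed limma in GV oocytes, where 9 sensor, 16 signalling, 9 NF-kB, 9 cytokine and 10 nuclease genes were tested.

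In eggs 55 list genes were tested, 1 was called higher and 3 lower, where 6.53% of all transcripts were called higher and 1.49% lower. Rnaseh1, which removes RNA from RNA and DNA hybrids, rose from 18.4 ± 1.60 FPKM in WT to 26.1 ± 3.78 FPKM in cKO eggs (limma log2 fold change 0.50, standard error 0.12, Benjamini-Hochberg adjusted p = 0.0382). Tank, an adaptor of the kinase TBK1, fell from 47.9 ± 0.504 to 37.9 ± 2.37 FPKM (log2 fold change -0.34, limma adjusted p = 0.0281). Jak1, the kinase of interferon receptors, fell from 49.8 ± 0.743 to 39.9 ± 2.52 FPKM (log2 fold change -0.32, limma adjusted p = 0.0310). Tlr8, an endosomal RNA sensor, fell from 2.33 ± 0.668 to 1.21 ± 0.278 FPKM (log2 fold change -0.87, limma adjusted p = 0.0419). The 4 genes are from 3 lists, 7 list genes were higher and 8 lower at an unadjusted p under 0.05, where 20.6% and 8.8% of all transcripts were, and the median log2 fold change was -0.01, against 0.07 for all transcripts. None of the 4 was called without WT egg replicate 1, 2, 3 or 4, or without cKO egg replicate 1 or 3, each of which left 0 calls, and 2 list genes were called without cKO egg replicate 4 and 7 without cKO egg replicate 2.

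**Figure D5:**
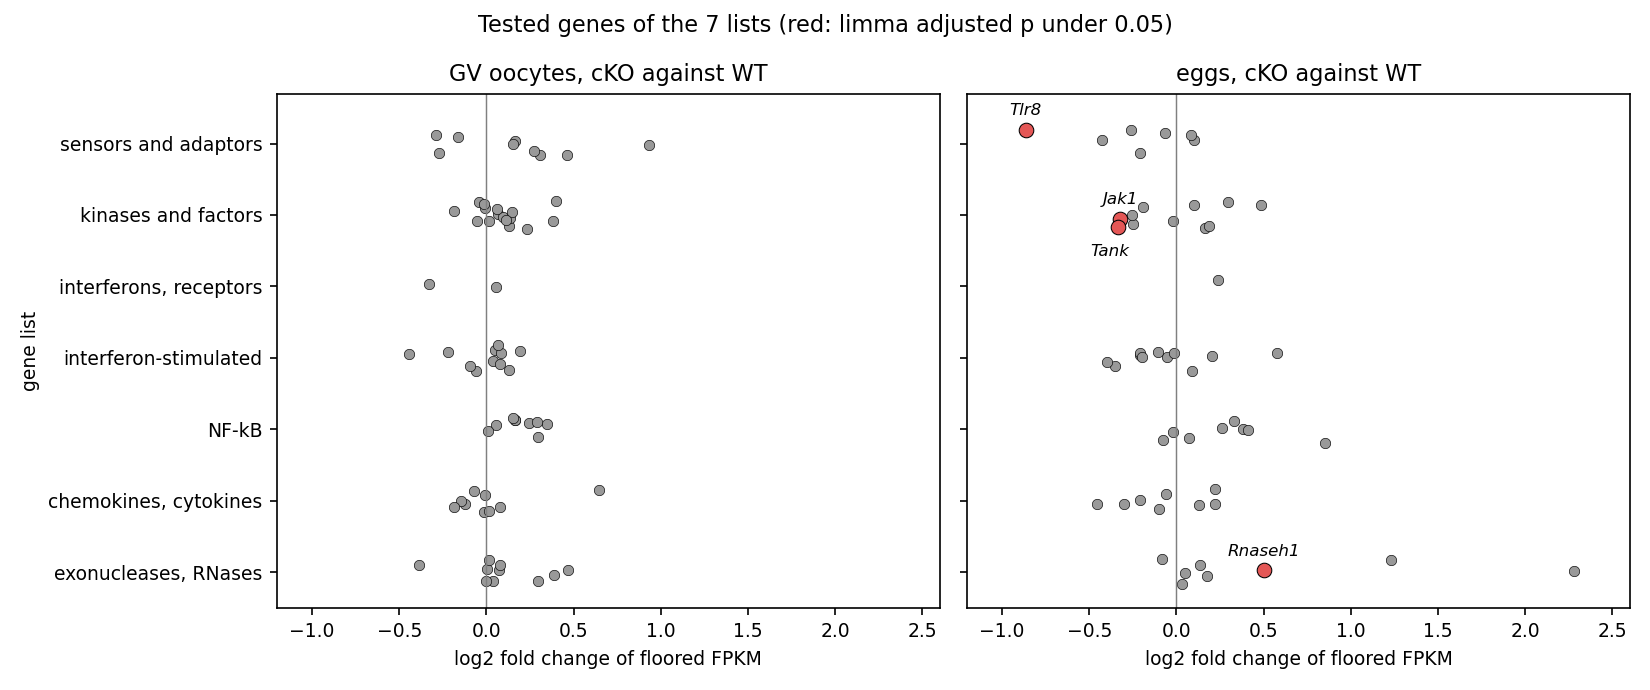
log2 fold change of FPKM floored at 1 (horizontal axes), cKO against WT, of each tested gene of the 7 lists (vertical axis, 1 row per list, points spread at random within a row), in GV oocytes on the left and in eggs on the right. Red points passed limma at a Benjamini-Hochberg adjusted p under 0.05, 0 of 66 in GV oocytes and 4 of 55 in eggs.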

How the data were processed

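The labels gave the genotype, stage and replicate of 16 libraries, matched to the table by column name. The authors deposited FPKM made by Smart-seq2 and Cufflinks 2.2.1; TopHat2 2.1.1 and mm10 are named in the submitters' processing notes, and the gene annotation is not given in the sources used here. With 0 ERCC entries in the table, amounts per cell were left out. FPKM under 1 was set to 1, log2 was taken, and transcripts averaging 1 FPKM or more were fitted with limma 3.58.1 in R 4.3.3 (empirical Bayes, intensity trend) with Benjamini-Hochberg adjustment over all of them and a threshold of 0.05. Single values were compared by two-sided exact permutation tests of mean FPKM (70 arrangements of 4 against 4). Depth used 2201 genes with a single GENCODE M21 (GRCm38) transcript. Fragments behind a value assume the longest transcript, so they are upper estimates.

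The 10 genes, the 7 pathway lists and the 6 marker lists were chosen with earlier results of these data known. List genes are named if called, or if the most abundant of their list in WT GV oocytes, and others are said to be chosen after seeing values. Python 3.11.15 was used with scipy 1.17.1, numpy 2.4.6, matplotlib 3.10.9 and pandas 2.3.3. Other settings tried were each library left out, a floor of 0.1 FPKM, adding 1 FPKM to values, filtering at a mean of 5 FPKM or not at all, rescaling by median ratio, limma without a trend, sums per gene name, a block for replicate number, and a joint fit of the 16 libraries.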

Additional observations from a re-analysis of the deposited data

Results flagged for a closer look

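2 results stood out. Ccl2 at 20.5 FPKM in WT egg replicate 1 lay far from the other WT eggs (3.90 to 6.03 FPKM), with a gap wider than Dixon's critical value for 4 libraries. It was the only such library in 30 groups tested for these genes, and chance alone flags about 1 group in 20. The genotype difference of Il1r2 was not the same at the 2 stages, lower in all 4 cKO GV libraries and higher in all 4 cKO eggs, with an interaction of 1.24 on the log2 scale (limma, Benjamini-Hochberg adjusted p = 0.0112). Of all 10615 transcripts, 1.07% had an interaction called in that direction.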

How the results depend on the processing

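With the replicate number as a block, the Psma7 difference was -150.5 FPKM in GV oocytes and -86.3 FPKM in eggs (two-sided exact sign-flip test, p = 0.125 each, the smallest that 4 pairs allow). Without 1 library it was -158.1 to -138.6 and -95.8 to -71.0 FPKM (exact p = 0.0571, the smallest for 3 against 4). Of the 5 genes tested in GV oocytes, 1 (Nfkbia) was called with all 16 libraries in one fit, where 124 transcripts were called higher and 33 lower in place of 11 and 2, and 0 when any 1 library was left out. In eggs 0 in place of 1 were called with a mean of at least 5 FPKM, where Il1r2 is not tested, and 0 under the block (Il1r2, limma adjusted p = 0.0702), with 0 to 1 without 1 library. The 4 list genes called in eggs became 2 without a filter, 2 without a trend, 0 under the block, 8 with all libraries in one fit, and 0 to 7 without 1 library, the 7 without cKO egg replicate 2. Over all transcripts, egg calls also moved, from 620 higher and 141 lower to 3 and 0 without WT egg replicate 3 and to 1024 and 136 without cKO egg replicate 2. With a mean of at least 5 FPKM, low genes were not tested. From GV oocyte to egg 3 in place of 5 genes were then called in WT and 4 in place of 5 in cKO, and the interaction had 0 in place of 1. Differences near 0 changed sign without 1 library, none of them called: Ddx58 in GV oocytes (log2 -0.100 to 0.0558), Mavs in GV oocytes (-0.0521 to 0.157), Isg20 in eggs (-0.113 to 0.631), Ddx58 in eggs (-0.0306 to 0.535), Mavs in eggs (-0.0992 to 0.195), and the interactions of Ddx58 (-0.0114 to 0.554), Mavs (-0.166 to 0.128) and Irf3 (-0.425 to 0.00934). Isg20 in eggs was 1.01 with a floor of 0.1 FPKM and 0.40 with 1 FPKM added, Mavs in eggs was -0.0321 with median-ratio rescaling, and the Irf3 interaction was 0.321 with a floor of 0.1 FPKM. Where no construction shows it, the cause was not tested. Same-numbered libraries deviated with correlations of -0.496 to 0.285, 2 of 16 over 0.1 and 1 the best with its own number. No general pairing by number was seen, but with 4 libraries per group these correlations cannot tell whether a weak or partial pairing exists. Depth limits Ifih1, Irf7 and Isg20 in WT GV oocytes, which rest on under 10 fragments.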
